A study of Mus musculus with 20 samples.

Results

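The 4 Hox gene clusters were described in a methylation profile of mouse hypothalamus at birth and at weaning age. The members were all SmaI/XmaI intervals of the deposited table (mm9 build) that overlapped chr6:52100000-52220000 (Hoxa), chr11:96045000-96240000 (Hoxb), chr15:102745000-102875000 (Hoxc) or chr2:74490000-74610000 (Hoxd). This gave 105 of 50782 intervals, with 30 in Hoxa, 22 in Hoxb, 17 in Hoxc and 36 in Hoxd. Nuclei came from the hypothalamus of male C57BL/6 mice, an inbred strain with no engineered allele named, at postnatal day 0 (P0) and day 21 (P21). They were sorted by the neuronal nuclear protein NeuN into neurons and non-neurons, so that the 4 groups were P0 neurons, P0 non-neurons, P21 neurons and P21 non-neurons, each with 5 libraries. Each library pooled 2 hypothalami, and the non-neuronal fraction holds every NeuN-negative cell type. The labelled cell types could not be checked against markers, because the table names no gene.

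Hox genes encode homeodomain transcription factors that give cells their position along the head to tail axis of the embryo. In mammals they lie in 4 clusters, and within a cluster the genes are ordered on the chromosome as their domains are ordered along the body. The hypothalamus lies in front of the region where Hox genes are switched on in development, and the clusters are known for dense CpG islands and for repression by Polycomb proteins in such tissue. By the gene order of RefSeq (GRCm38.p6, used for order only), coordinates run towards Hoxa13 in Hoxa, and away from group 13 in the other clusters, towards Hoxb1, Hoxc4 and Hoxd1.

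The assay, methylation-specific amplification, reads the sequence CCCGGG. SmaI first cuts unmethylated sites to blunt ends, XmaI then cuts methylated ones, and adaptors join only the XmaI ends, so a read from an interval requires methylation at its left and its right site. The table of RefSeq promoter windows held 24 windows of 300 bases for 22 of the 39 Hox genes, and 8 of these windows (33.3%) contained CCCGGG, a palindrome that reads alike on both strands. Over all 32851 windows 4436 (13.5%) contained it. To show what the enzymes cut in such a gene, the 250 bases upstream of the start are given for the lowest-numbered gene with a site in Hoxa, Hoxb and Hoxd (the only Hoxc window, that of Hoxc4, had none), with the site in capitals, 5′ to 3′ on the strand of the gene. The first is Hoxa2 (minus strand, GRCm38.p6 chr6:52164832-52165081), the next Hoxb1 (plus strand, chr11:96365508-96365757) and the last Hoxd4 (plus strand, chr2:74721728-74721977).
Hoxa2: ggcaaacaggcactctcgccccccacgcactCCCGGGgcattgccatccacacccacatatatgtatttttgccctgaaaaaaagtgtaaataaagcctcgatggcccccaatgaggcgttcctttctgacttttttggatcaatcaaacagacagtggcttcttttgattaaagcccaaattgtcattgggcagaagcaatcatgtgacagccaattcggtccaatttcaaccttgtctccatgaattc
Hoxb1: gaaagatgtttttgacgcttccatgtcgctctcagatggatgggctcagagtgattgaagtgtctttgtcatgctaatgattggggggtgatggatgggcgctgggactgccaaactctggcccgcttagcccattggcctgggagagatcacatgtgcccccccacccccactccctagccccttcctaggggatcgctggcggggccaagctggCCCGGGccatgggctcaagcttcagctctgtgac
Hoxd4: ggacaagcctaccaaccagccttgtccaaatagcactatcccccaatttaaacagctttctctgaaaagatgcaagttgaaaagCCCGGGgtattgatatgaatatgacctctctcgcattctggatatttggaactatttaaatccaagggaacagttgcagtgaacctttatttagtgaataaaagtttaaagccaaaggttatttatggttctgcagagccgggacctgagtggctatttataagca
In these 3 the site began at position -219, -34 and -166 from the start. They show the recognition site only: their build differs from mm9, so they were not set against the intervals, and no interval was assigned to a gene.

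Library totals ran from 5663740 to 9998110 reads. Read counts were expressed as CPM, the usual count relative to library size (here after TMM scaling), a relative level and not a percentage of methylation, which cannot tell methylation in all cells from methylation in a part of them. A count of 0 in 1 library allows up to 3 reads, or 0.263 to 0.537 CPM, and such limits cover counting error only, since reads carry no molecular identifiers. The limit also takes reads as independent, and whether mates of a read pair were counted separately is not given. The values 1, 2, 3, 4, 5 and 6 occurred 50136, 44642, 26096, 23500, 17950 and 16184 times over all libraries. The relative fall was smaller from odd to even values than from even to odd, and its cause was not tested. One library stood apart: P0 non-neuron replicate 1 had 63.3 CPM summed over the Hox intervals against 35.6 to 41.6 CPM in the other P0 non-neuron libraries. Its share of table intervals with reads, 73.4%, was the highest of the 20, but P0 non-neuron replicate 3 had 72.9%. The part of P0 non-neuron replicate 1 in the group values is given by the values without that library. The effect of age and that of the preparation of newborn and older tissue cannot be told apart.

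All 4 clusters had few reads in all 4 groups. The 105 intervals took 6691 of 147488978 reads (0.00454%), while they made up 0.207% of the intervals. The median over Hox intervals of the mean CPM of the 20 libraries was 0.150, against 1.03 for the 89 intervals within 500 kb on either side of the windows and 1.27 for the whole table. In 72 Hox intervals (68.6%) no group reached 0.5 CPM, against 31.5% of the flanking intervals and 36.9% of the table. Only 1 Hox interval (0.952%) reached 10 CPM in any group, which 24.7% of flanking intervals and 29.1% of the table did. Intervals with no read in any library were about as frequent in the clusters as in the table, 11 of 105 (10.5%) against 12.3%. They were less frequent in the flanks, 4 of 89 (4.49%). Most Hox intervals therefore had reads, but few of them.

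**Figure D1:**
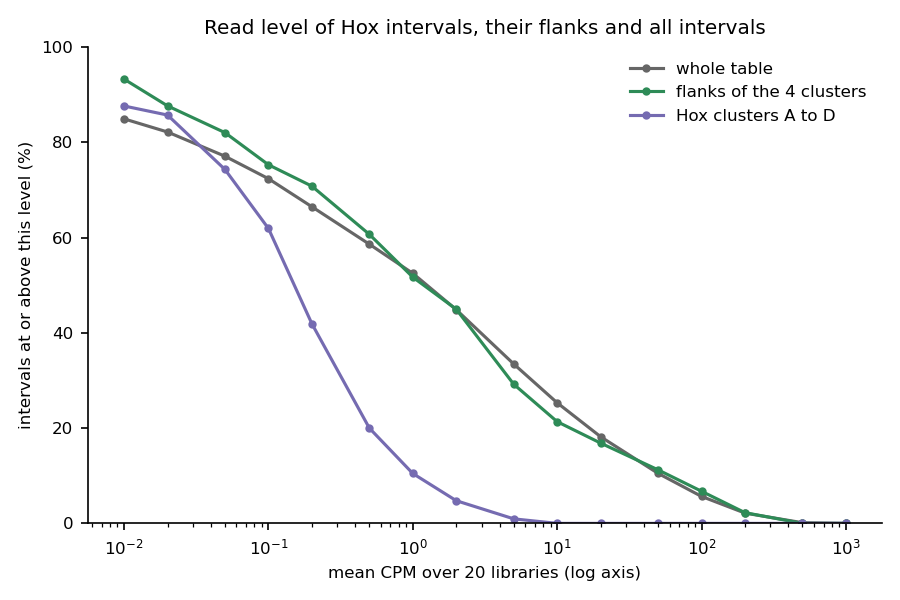
Share of intervals (vertical axis, percent) whose mean CPM over the 20 libraries was at or above the level on the horizontal axis (log scale), for the 105 Hox intervals, the 89 flanking intervals and the whole table. The Hox line lies below both other lines from 0.05 to 200 CPM. At 0.05 CPM it is at 74.3% against 82.0% in the flanks and 77.1% in the table, and 20% of Hox intervals reach 0.5 CPM against 58.6% of the table.

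Interval length affects amplification. The median length was 585 bp in the Hox intervals, 571 bp in the flanks and 611 bp in the table, and 619.5, 521.5, 1223 and 432 bp in Hoxa, Hoxb, Hoxc and Hoxd. Below 200 bp the median level was 0.0214 CPM over 19 Hox intervals and 0.0227 CPM over the table. From 200 to 500 bp it was 0.204 CPM over 28 Hox intervals and 0.379 CPM over the table. Short intervals thus had low levels both inside and outside the clusters, and the wide gap was in the longer ones. Within the length class of 500 to 1000 bp the median level was 0.430 CPM over 24 Hox intervals and 18.2 CPM over the table. Between 1000 and 2000 bp it was 0.163 CPM over 21 Hox intervals and 7.87 CPM over the table. From 2000 bp upward it was 0.150 CPM over 13 Hox intervals and 2.25 CPM over the table. In the flanks the median was 0.0152 CPM below 200 bp and 0.553 CPM from 200 to 500 bp. In the longer classes it was 4.69, 4.01 and 1.89 CPM there, between the Hox and the table levels. The flanks did not have one level everywhere. The nearest interval below the Hoxa window, chr6:52053894-52054356, lay 45.6 kb outside it and had 210.0 CPM, whereas the first interval inside, chr6:52108502-52109098, had 0.115 CPM. Below the Hoxb window chr11:96012803-96013367, 31.6 kb outside, had 242.8 CPM and the first inside, chr11:96055171-96055584, 0.395 CPM. At the other 6 window edges the nearest outside interval had 0.00854 to 1.69 CPM, and no step of that size was found there.

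The summed level differed between clusters and groups. Hoxc had 8.33 ± 1.68 CPM (SD, n = 5 here and below) in P0 neurons, 10.3 ± 3.04 in P0 non-neurons, 32.1 ± 1.61 in P21 neurons and, at the same age, 16.8 ± 1.20 in non-neurons. Its lowest P21 neuron library, at 29.5 CPM, was above its highest P21 non-neuron library, at 17.9 CPM, and both P21 groups were above every P0 library. Hoxa had 9.92 ± 0.926, 15.7 ± 5.98, 7.56 ± 2.88 and 19.5 ± 1.55 CPM in the same order of groups, higher in non-neurons than in neurons at P21 in every library, with 17.2 CPM as the lowest non-neuron value and 12.2 CPM as the highest neuron value. Hoxb had 8.28 ± 2.47, 8.93 ± 1.53, 5.70 ± 1.31 and 8.19 ± 1.84 CPM, and its groups overlapped in every comparison. Hoxd had 7.93 ± 1.58, 7.78 ± 3.94, 3.72 ± 0.536 and 6.32 ± 1.33 CPM, with all 5 P21 neuron libraries below the P0 neuron libraries. Without P0 non-neuron replicate 1 the P0 non-neuron means were 13.2 CPM in Hoxa, 8.87 in Hoxb, 9.36 in Hoxc and 6.15 in Hoxd. These sums were not tested, since they are scores over the members.

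**Figure D2:**
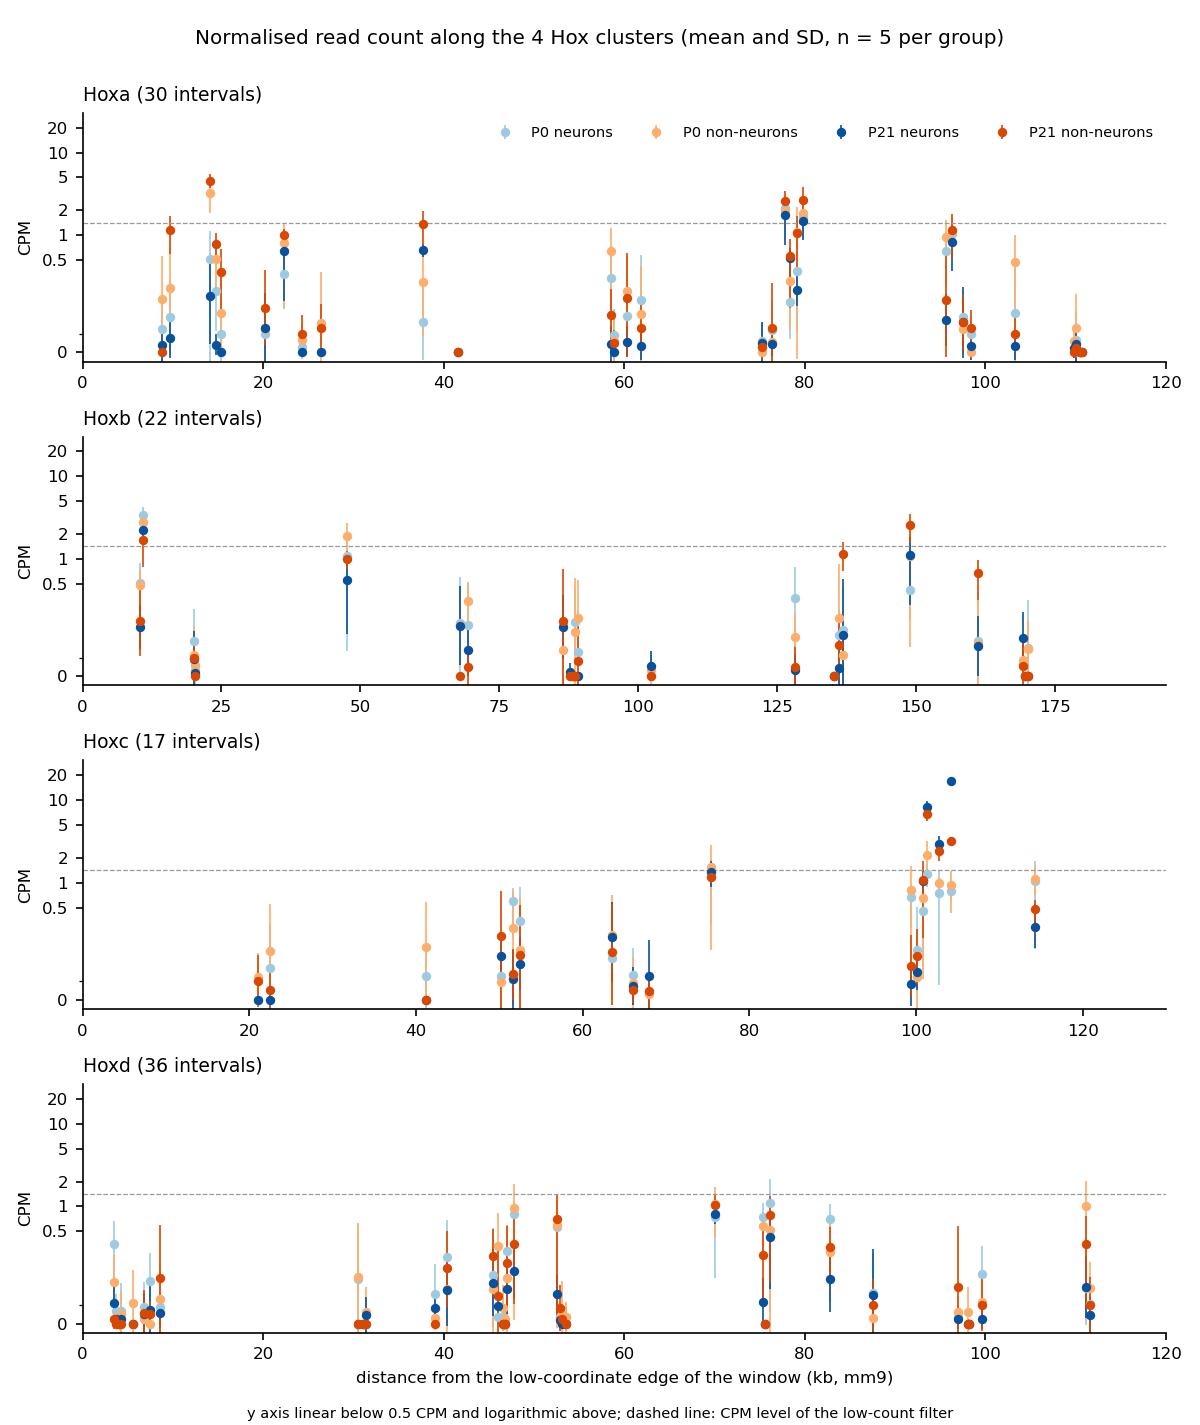
Mean CPM with SD (5 libraries per group) of every Hox interval, plotted at the distance of its midpoint in kb from the low-coordinate edge of the cluster window, with 1 panel per cluster. The vertical axis is linear below 0.5 CPM and logarithmic above it, and the dashed line is drawn at the filter level of 1.42 CPM, which was applied before TMM scaling. The highest points are the Hoxc intervals that start at 101.1 and 103.9 kb, up to 16.7 CPM in P21 neurons, and no point of Hoxd reaches the dashed line.

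Groups were compared interval by interval with the quasi-likelihood test of edgeR over the whole table, with Benjamini-Hochberg adjustment over all 26679 intervals that passed a filter on low counts (at least 1.42 CPM, computed on library totals before TMM scaling, in at least 5 libraries). Of the Hox intervals 10 (9.52%) passed it, 3 in Hoxa, 3 in Hoxb, 4 in Hoxc and none in Hoxd, against 46 of 89 flanking intervals (51.7%) and 52.5% of the table. An interval can pass through the 1 group in which it is high, so counts among these 10 describe them and do not stand for the clusters. In neurons against non-neurons at P0, 1 of the 10 was called, lower in neurons, where 9.79% of all tested intervals were called (6.92% higher and 2.87% lower). At P21, 3 were called in that comparison (1 higher and 2 lower in neurons), with 35.8% called over the table (20.8% higher and 15.0% lower). With age, 3 rose and none fell in neurons, with 57.3% called over the table (31.0% higher and 26.3% lower). In non-neurons 4 rose and none fell, with 54.3% called (28.5% higher and 25.8% lower). The difference between the 2 age changes (the interaction) was called at 1 of 10, with 14.1% over the table. The median log2 fold change of the 10 was -0.39 at P0, -0.18 at P21, 0.01 with age in neurons and 0.50 with age in non-neurons, and over all tested intervals it was 0.01, -0.06, 0.06 and 0.03.

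**Figure D3:**
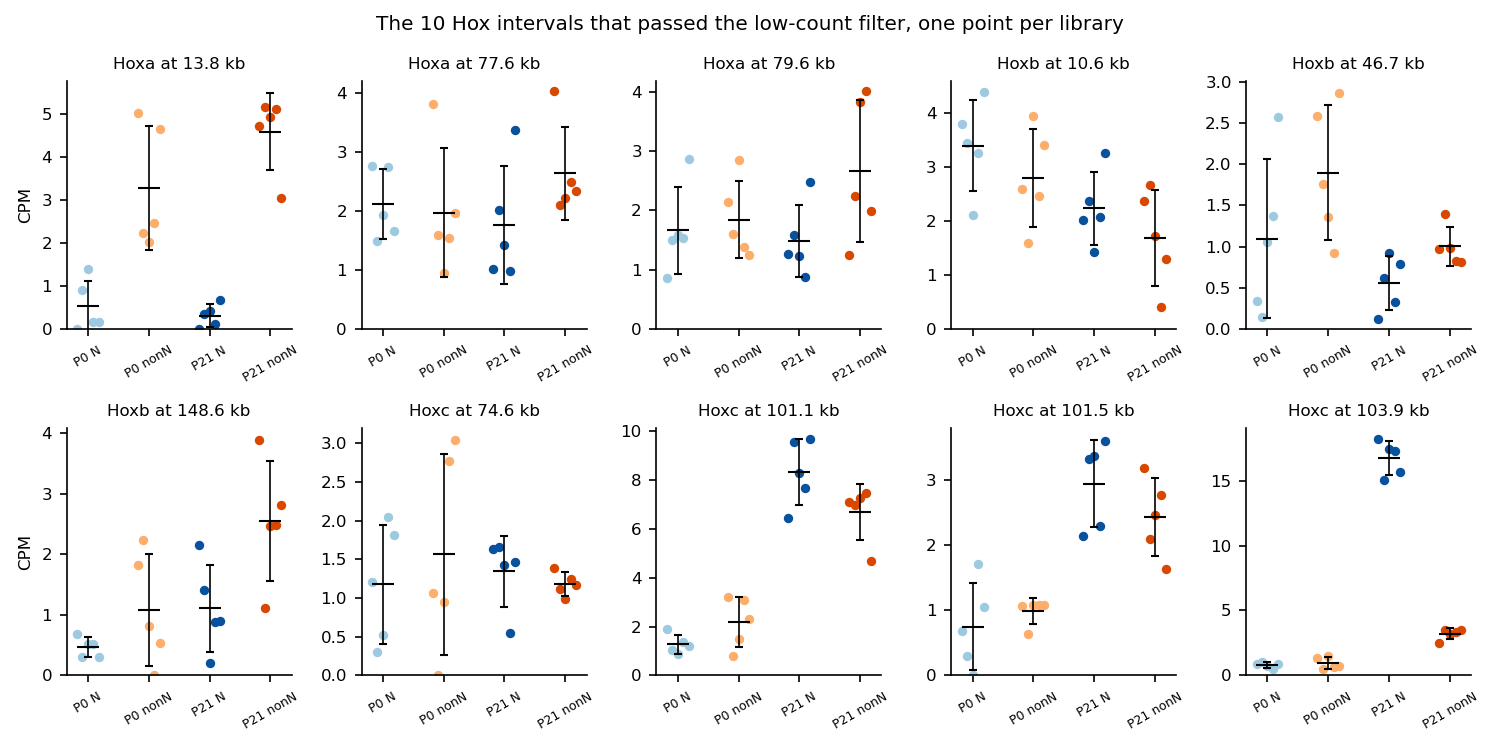
CPM of each library (points), with group mean and SD (bars, n = 5), for the 10 Hox intervals that passed the filter, each named by cluster and distance of its start in kb from the low-coordinate edge of its window. N stands for neurons and nonN for non-neurons, and each panel has its own vertical axis starting at 0. The P21 neuron libraries of Hoxc at 103.9 kb lie at 15.1 to 18.2 CPM, above all other libraries, and the neurons of Hoxa at 13.8 kb lie below the non-neurons of the same age.

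The highest and most changed Hox interval was in Hoxc, chr15:102848933-102849610 (677 bp, 103.9 kb into the window). Its CPM was 0.861, 1.04, 0.700, 0.513 and 0.906 in P0 neurons. In P0 non-neurons it was 1.37, 0.479, 1.49, 0.615 and 0.717. In P21 neurons it was 18.2, 15.1, 17.4, 17.3 and 15.6. Every P21 neuron library was thus far above every P0 library, and the P0 cell types overlapped. In P21 non-neurons it was 2.50, 3.49, 3.20, 3.32 and 3.51, above all P0 libraries and below all P21 neuron libraries. The reads behind these levels were 25 and 31 over the 5 libraries of P0 neurons and P0 non-neurons, and 784 and 123 at P21. With age it rose 20.2-fold in neurons (log2 4.33 ± 0.25 SE, adjusted p = 3.1e-18) and 3.32-fold in non-neurons (log2 1.73 ± 0.28, adjusted p = 1.8e-06). At P21 it was 5.18-fold higher in neurons than in non-neurons (log2 2.37 ± 0.19, adjusted p = 1.1e-13), whereas at P0 the log2 difference was -0.23 ± 0.37 (adjusted p = 0.82). The age change was larger in neurons than in non-neurons by 2.60 ± 0.42 on the log2 scale (interaction, adjusted p = 7.6e-06).

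Both neighbours on its low-coordinate side, each sharing a cut site with the next, also rose with age. The interval chr15:102846097-102846464 (367 bp, 101.1 kb) had 1.89, 1.04, 0.875, 1.37 and 1.21 CPM in P0 neurons and 3.20, 0.798, 1.49, 3.07 and 2.33 CPM in P0 non-neurons. At P21 it had 6.43, 9.55, 8.26, 7.66 and 9.68 CPM in neurons and 7.08, 6.99, 7.26, 7.47 and 4.68 CPM in non-neurons. In both cell types the ages did not overlap, while at P21 the cell types did. It rose 6.48-fold in neurons (log2 2.70 ± 0.28, adjusted p = 7.8e-11) and 3.06-fold in non-neurons (log2 1.61 ± 0.26, adjusted p = 1.7e-06), and the cell types at P21 differed by 0.32 ± 0.22 on the log2 scale (adjusted p = 0.261). At P0 the log2 difference of neurons from non-neurons was -0.76 ± 0.33 (adjusted p = 0.169). Without P0 non-neuron replicate 2 that difference was called (log2 -0.97, adjusted p = 0.0441). The interaction of this interval, which takes in the differences at both ages, was 1.08 ± 0.40 (adjusted p = 0.0602 in edgeR). It was called in DESeq2 (adjusted p = 0.0451), with the length trend removed (0.0299), with replicate number as a block (0.0458) and with any of 4 libraries left out.

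Between these intervals lies chr15:102846464-102848933 (2469 bp, 101.5 kb), at a lower level. It had 0.689, 0.299, 0, 1.71 and 1.06 CPM in P0 neurons and 1.07, 0.639, 1.08, 1.08 and 1.07 CPM in P0 non-neurons. At P21 the values were 2.14, 3.33, 3.37, 2.30 and 3.60 CPM in neurons and 3.19, 2.10, 2.46, 2.77 and 1.64 CPM in non-neurons. The ages were again separate within each cell type and the cell types overlapped. The rise was 3.88-fold in neurons (log2 1.96 ± 0.40, adjusted p = 6.6e-05) and 2.42-fold in non-neurons (log2 1.28 ± 0.39, adjusted p = 0.00587). The level at P21 in neurons against non-neurons thus differed among touching intervals, with 16.7 against 3.20 CPM in the outermost and 2.95 against 2.43 CPM in the one beside it, although they share a site.

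These 3 intervals belong to the longest chain of touching intervals in Hoxc, chr15:102844243-102849610, with 6 intervals and 7 sites over 5367 bp. The chain had 130 reads in P0 neurons, 183 in P0 non-neurons, 1383 in P21 neurons and, at the same age, 527 in non-neurons. It made up 51.0%, 55.5%, 91.0% and 82.5% of the Hoxc reads of those groups. Reads along the chain did not all go the same way. Its low-coordinate end, chr15:102844243-102844712 (99.2 kb), had 20 and 26 reads in P0 neurons and P0 non-neurons and 4 and 7 at P21. The least-read member, chr15:102844712-102845502, had 8, 4, 7 and 9 reads in the order P0 neurons, P0 non-neurons, P21 neurons, P21 non-neurons, and chr15:102845502-102846097 had 15, 20, 50 and 42. The end member and the least-read one were below the filter, as was chr15:102845502-102846097, and are described by their reads only. On the high-coordinate side, past a gap, chr15:102858335-102860327 (113.3 kb) had 33, 37, 19 and 19 reads. The fourth tested Hoxc interval, chr15:102819597-102821097 (74.6 kb), had group means of 1.18 ± 0.769, 1.57 ± 1.30, 1.35 ± 0.460 and 1.18 ± 0.150 CPM and was called in no comparison. Of the other Hoxc intervals, those from 19.8 to 67.5 kb on the group 13 side had 8 to 44 reads each over all 20 libraries.

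In Hoxa the clearest difference was between cell types, at chr6:52113790-52114459 (669 bp, 13.8 kb into the window). It had 0, 0.896, 1.40, 0.171 and 0.151 CPM in P0 neurons and 5.02, 2.24, 2.03, 2.46 and 4.66 CPM in P0 non-neurons. At P21 it had 0, 0.350, 0.408, 0.109 and 0.675 CPM in neurons and 4.72, 5.17, 4.92, 5.12 and 3.04 CPM in non-neurons. Non-neurons were above neurons in every library at both ages. The level was 6.08-fold lower in neurons at P0 (log2 -2.60 ± 0.49, adjusted p = 0.00013) and 13.8-fold lower at P21 (log2 -3.79 ± 0.47, adjusted p = 8.2e-09), on 16 and 15 reads in the neuron groups and 104 and 174 in the non-neuron groups. The age changes were -0.69 ± 0.65 in neurons (adjusted p = 0.374) and 0.49 ± 0.36 in non-neurons (adjusted p = 0.245) on the log2 scale, and the interaction was -1.18 ± 0.75 (adjusted p = 0.353), and none of these was called. With the trend in interval length removed the rise in non-neurons was called (log2 0.88, adjusted p = 0.0356).

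The low-coordinate side of Hoxa held further intervals with more reads in non-neurons, though not all intervals there had them. In the chain of 3 touching intervals that starts with it, chr6:52113790-52115687, there were 29 reads in P0 neurons, 128 in P0 non-neurons, 17 in P21 neurons and, at the same age, 221 in non-neurons. Its other members, chr6:52114459-52115044 and chr6:52115044-52115687, had 2 and 0 reads in P21 neurons and 30 and 17 in P21 non-neurons. At P0 they had 10 and 3 reads in neurons and 17 and 7 in non-neurons. Outside that chain, chr6:52109098-52110190 (9.1 kb) had 6, 11, 4 and 45 reads in the order P0 neurons, P0 non-neurons, P21 neurons, P21 non-neurons. The interval that touches it, chr6:52108502-52109098, had 4, 9, 2 and 0 reads in that order and so none in P21 non-neurons. At 37.1 kb chr6:52137140-52138282 had 5, 13, 31 and 52 reads, more at P21 than at P0 in both cell types. All 5 were below the filter.

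The middle of Hoxa held the other tested intervals, both in the longest chain of that cluster, chr6:52175120-52180044, with 6 intervals and 788 reads. The most-read one of the cluster, chr6:52177566-52177954 (77.6 kb), had 2.11 ± 0.597 CPM in P0 neurons, 1.97 ± 1.09 in P0 non-neurons, 1.76 ± 0.994 in P21 neurons and, at the same age, 2.63 ± 0.793 in non-neurons. At 79.6 kb chr6:52179643-52180044 had 1.67 ± 0.733, 1.84 ± 0.653, 1.48 ± 0.608 and 2.66 ± 1.20 CPM in the same order. The groups overlapped at both intervals, and neither was called in the edgeR fit. The nearest to the threshold was the latter at P21, where the log2 difference of neurons from non-neurons was -0.84 ± 0.35 (adjusted p = 0.0554). It was called lower in neurons with RLE scaling (adjusted p = 0.0480), library totals alone (0.0380), upper-quartile scaling (0.0154), the length trend removed (0.0447) and DESeq2 (0.0497). The same held without P21 neuron replicate 5 (adjusted p = 0.0205) or P21 non-neuron replicate 1 (0.0212) or 5 (0.0450). The former was called lower in neurons at P21 without P21 neuron replicate 5 (adjusted p = 0.0446). The least-read member of this chain, chr6:52175120-52175331, had 5 reads in all 20 libraries. At the Hoxa13 side the 4 touching intervals of chr6:52209663-52211127 had 12 reads in all, and 2 of them had none.

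Hoxb had 3 tested intervals, spread over the cluster and not touching each other. At 148.6 kb chr11:96193559-96194379 (820 bp) had 0.689, 0.299, 0.525, 0.513 and 0.302 CPM in P0 neurons and 1.83, 2.24, 0.813, 0 and 0.537 CPM in P0 non-neurons. At P21 it had 2.14, 1.40, 0.204, 0.876 and 0.900 CPM in neurons and 3.89, 1.12, 2.46, 2.49 and 2.81 CPM in non-neurons. The P21 non-neuron libraries were the highest, but 1 of them lay among the P21 neurons. It was 2.32-fold lower in neurons at P21 (log2 -1.22 ± 0.44, adjusted p = 0.0289) and rose 2.34-fold with age in non-neurons (log2 1.23 ± 0.47, adjusted p = 0.0262). In neurons the age change was 1.22 ± 0.60 (adjusted p = 0.0772), and it was called with library totals alone (adjusted p = 0.0406), with the length trend removed (0.0452) and without P21 neuron replicate 3 (0.0251). The P21 call was lost without P21 neuron replicate 3, 4 or 5 or P21 non-neuron replicate 1 or 5, and the age call without P0 non-neuron replicate 3, 4 or 5 or P21 non-neuron replicate 1, with adjusted p up to 0.0962 and 0.0828.

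The most-read Hoxb interval, chr11:96055584-96056158 (574 bp, 10.6 kb, on the Hoxb13 side), had 3.39 ± 0.840 CPM in P0 neurons, 2.80 ± 0.901 in P0 non-neurons, 2.23 ± 0.670 in P21 neurons and, at the same age, 1.69 ± 0.891 in non-neurons. It was called in no comparison, and its age change was -0.61 ± 0.32 in neurons (adjusted p = 0.0989) and -0.73 ± 0.34 in non-neurons (adjusted p = 0.0659). The fall was called in neurons without P21 neuron replicate 5 (adjusted p = 0.0493), and in non-neurons in DESeq2 (0.0437) and without P0 non-neuron replicate 2 or P21 non-neuron replicate 1 or 2 (0.0270 to 0.0414). At 46.7 kb chr11:96091724-96093510 had 1.10 ± 0.962, 1.90 ± 0.819, 0.555 ± 0.326 and 1.00 ± 0.235 CPM in the same order of groups, with no call. With the length trend removed it was called lower at P21 than at P0 in neurons (log2 -1.31, adjusted p = 0.0272) and in non-neurons (log2 -1.24, adjusted p = 0.0189), and in neurons also without P0 neuron replicate 2 (adjusted p = 0.0342). The longest Hoxb chain, chr11:96130438-96134179, had 5 intervals and 72 reads in all, from 0 reads in chr11:96133179-96133428 to 37 in chr11:96130438-96132446. Its member chr11:96133428-96133976 had 9 reads in P0 neurons, 8 in P0 non-neurons and none in either P21 group. Near the Hoxb1 side, chr11:96181723-96182072 (136.7 kb) had 8, 4, 12 and 44 reads and chr11:96205545-96206966 (160.5 kb) 6, 6, 7 and 26 reads. The order is P0 neurons, P0 non-neurons, P21 neurons, P21 non-neurons, and P21 non-neurons had the most at both. Still nearer that end, the chain chr11:96214070-96215881 had 7, 8, 10 and 2 reads in that order, the fewest in P21 non-neurons.

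Hoxd had the most intervals and the fewest reads per interval. Its median level was 0.0846 CPM, against 0.176 in Hoxa, 0.156 in Hoxb and 0.296 in Hoxc. In 29 of its 36 intervals no group reached 0.5 CPM. The 7 intervals flanking Hoxd also had a low median, 0.0936 CPM, but they were shorter, with a median length of 246 bp against 432 bp in Hoxd. Of these flanking intervals 1 (14.3%) passed the filter and reached 10 CPM in a group, which no Hoxd interval did. Whether the low level is particular to the Hoxd window was not tested. The flanks of Hoxa, Hoxb and Hoxc had medians of 6.32, 1.49 and 0.985 CPM. The highest, chr2:74559869-74560179 (310 bp, 69.9 kb), had 0.738 ± 0.490 CPM in P0 neurons, 1.09 ± 0.623 in P0 non-neurons, 0.818 ± 0.211 in P21 neurons and, at the same age, 1.04 ± 0.378 in non-neurons, and all groups overlapped. The next, chr2:74565696-74566584 (75.7 kb), had 1.09 ± 1.03, 0.523 ± 0.619, 0.469 ± 0.281 and 0.788 ± 0.564 CPM, and chr2:74537351-74538127 (47.4 kb) had 0.809 ± 0.310, 0.947 ± 0.927, 0.287 ± 0.147 and 0.433 ± 0.329 CPM. In the last of these the CPM of each P21 neuron library was below that of each P0 neuron library, on 14 and 25 reads. The reads themselves overlapped, with 1 to 5 per library in P21 neurons and 3 to 7 in P0 neurons, whose library totals were lower. This interval was below the filter, so the difference was not tested in the main fit. The longest chain of touching intervals in any of the clusters lay on the Hoxd13 side, chr2:74493362-74499319, with 8 intervals and 77 reads, from 0 reads in chr2:74493855-74494067 to 26 in chr2:74493362-74493576. No group exceeded 39 reads in any Hoxd interval.

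**Figure D4:**
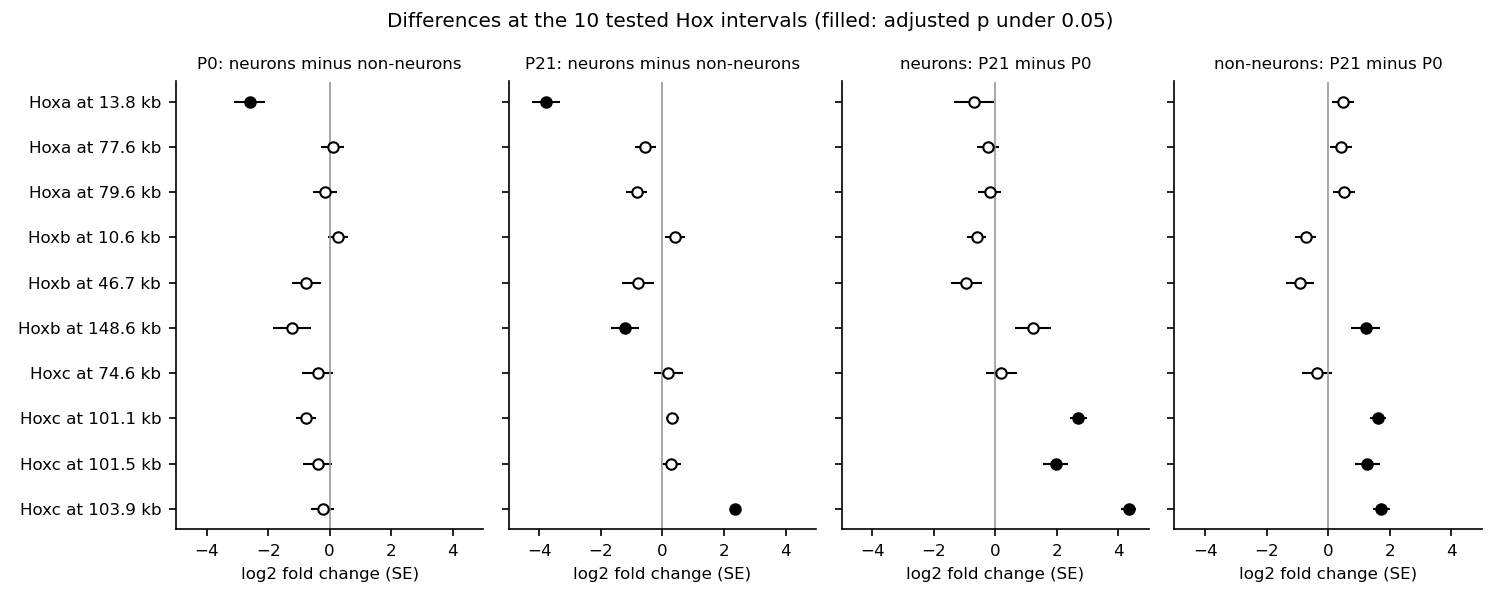
Log2 fold change with its SE from the edgeR fit for the 10 tested Hox intervals in the 4 pairwise comparisons, with filled points where the adjusted p was under 0.05. Intervals are named by cluster and distance in kb from the low-coordinate edge of the window. The filled points with age all lie on the side of a rise, from 1.23 to 4.33, and Hoxa at 13.8 kb is filled on the lower side in both cell type comparisons.

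The 95 intervals below the filter had, per interval, 0.223 ± 0.0179 CPM in P0 neurons, 0.254 ± 0.0864 in P0 non-neurons, 0.130 ± 0.0144 in P21 neurons and, at the same age, 0.233 ± 0.0260 in non-neurons. Every P21 neuron library, at 0.114 to 0.148 CPM, was below every library of the other groups. In untested intervals of the flanks the means were 0.279, 0.333, 0.160 and 0.226 CPM, and in those of the whole series 0.179, 0.206, 0.160 and 0.170 CPM, so P21 neurons had the lowest mean there too. When intervals with few reads were also fitted, 94 Hox intervals had a read and 84 of these were below the filter. Among the 84, with age in neurons, 1 was called higher and 14 lower, and in non-neurons 3 higher and 9 lower. Over all 17866 intervals of the table below the filter 3.82% were called higher and 12.0% lower with age in neurons, and 2.19% higher and 11.4% lower in non-neurons, so calls there were mostly lower as well. Over the whole table without the filter 39.3% of intervals were called with age in neurons and 36.4% in non-neurons. At P21 the fit called 1 of the 84 higher and 6 lower in neurons, with 2.58% higher and 1.86% lower over the intervals below the filter and 21.6% called over the whole table. At P0 it called none of the 84 (5.56% over that table), nor did it for the interaction (8.22%). Those called lower with age had 4 to 33 reads over the 5 P0 libraries of the cell type and 0 to 19 over the 5 P21 libraries, and no fold change is given for them.

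**Figure D5:**
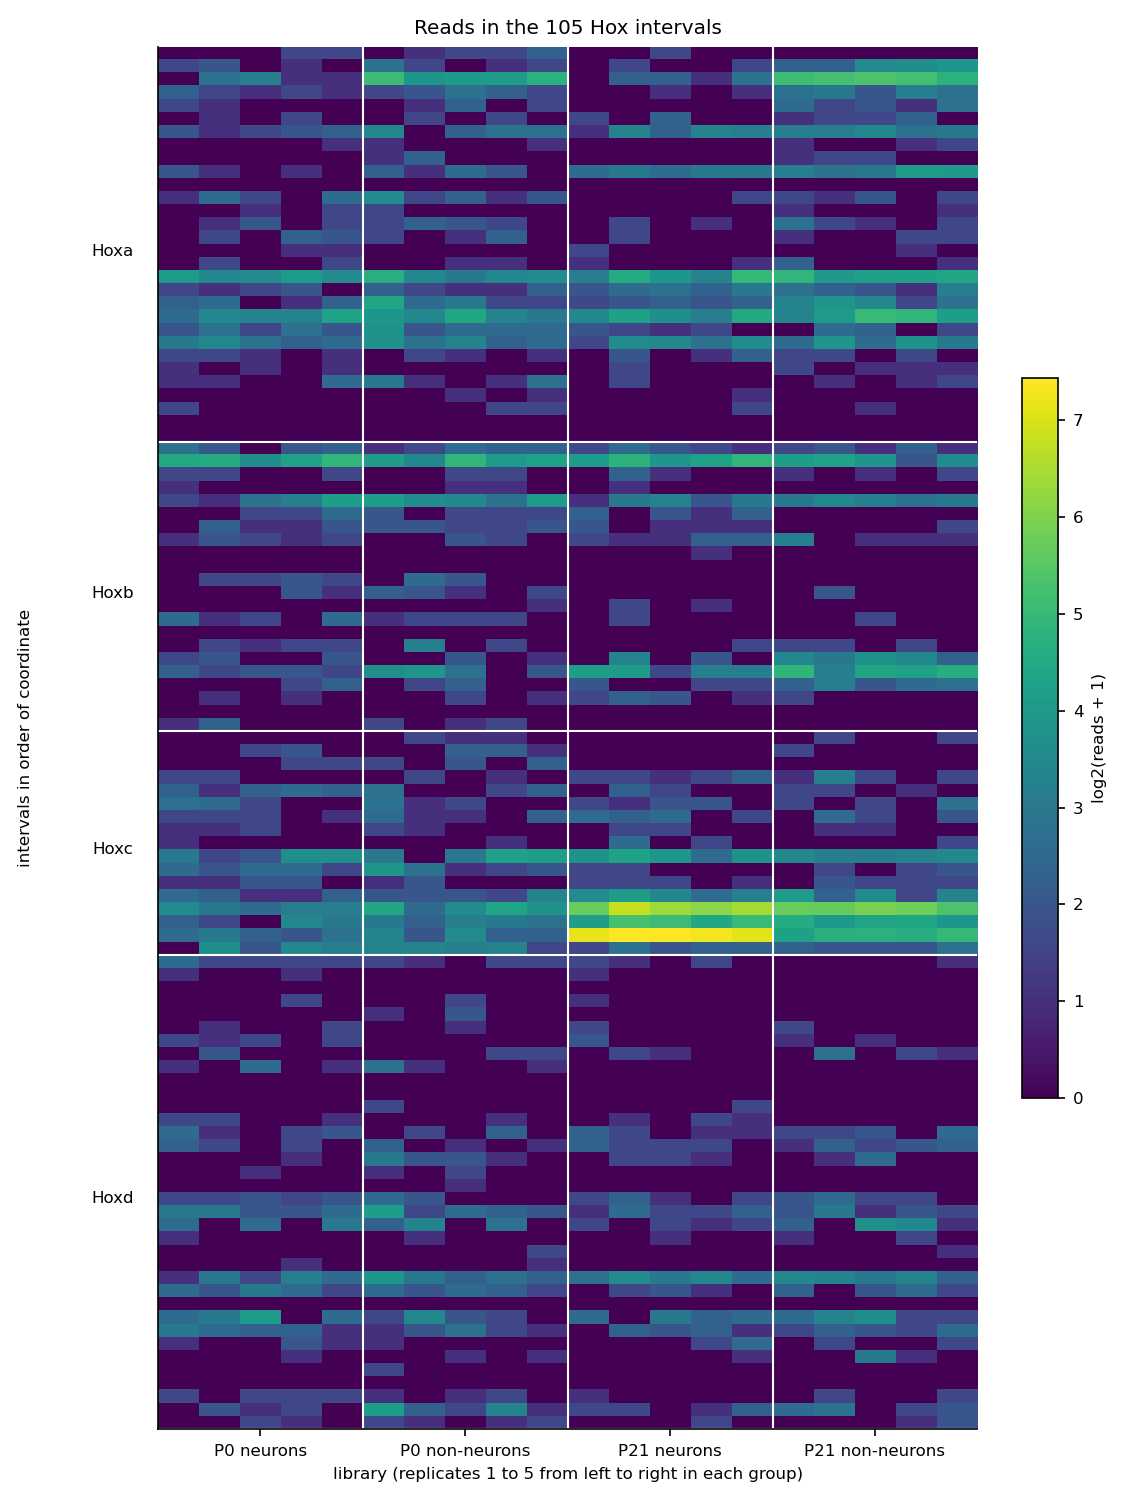
Reads in every Hox interval and library, coloured on the scale log2(reads + 1), with intervals in rows from low to high coordinate within each cluster and libraries in columns by group. The brightest row, with 139 to 172 reads per library, is the Hoxc interval at 103.9 kb in P21 neurons, and rows of Hoxd hold few reads or none.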

How the data were processed

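The authors deposited 1 table of read counts, not normalized, with a row for each stretch between neighbouring SmaI/XmaI sites. The unit was read from the deposited values, which are whole and sum to unequal totals. Reads were processed with FastQC 0.10.1, cutadapt and Bowtie 0.12.9 on mm9, per the submitters' processing notes. The way reads were assigned to intervals and the handling of reads with several positions are not given in the sources used here. The columns were matched to the 20 libraries by age, cell type letter and replicate number.

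Intervals were assigned by overlap with the 4 windows, with coordinates as deposited. The windows and the lists were chosen with earlier results of these data known. An mm9 annotation was not used here, so intervals were not assigned to genes. Intervals were filtered with filterByExpr (minimum count 10, total 15) and fitted over the whole table with TMM scaling, 1 mean per group and the robust quasi-likelihood test of edgeR 4.0.16 in R 4.3.3. Calls had an adjusted p under 0.05. A standard error is the log2 fold change divided by the square root of F. It is approximate and can be far off for changes near 0. For chr11:96193559-96194379 it was 0.21 for an interaction of -0.0036. The cell type differences behind that interaction had 0.62 at P0 and 0.44 at P21. The functions were tested on simulated data. Named intervals were the 3 with the highest mean CPM per cluster, called members (up to 5 per direction and comparison) and the longest chain of touching intervals per cluster. Other intervals were added after their values were seen. Totals of 5663740 to 9998110 reads set the precision. Samples are labelled as biological replicates. Alternatives were other scalings, other filters, DESeq2 1.42.0, the compared groups alone, a length trend (lowess span 0.2), a replicate block and fits without 1 library, and the sums without P0 non-neuron replicate 1 were added after seeing the data. Promoter sequences are from RefSeq (GRCm38.p6).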

Additional observations from a re-analysis of the deposited data

Results flagged for a closer look

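In 72 sets of 5 libraries (a named Hox interval with at least 100 reads, a cluster sum or the sum of all 4 clusters, in 1 group) the highest or lowest library was compared with the others by its gap relative to the range of the group, and 9 sets had a library far from the rest. Sets of 5 independent, normally distributed values show such a gap in about 1 of 20 cases. That rate is not established for these sets, which rest on low counts and partly share intervals. P0 non-neuron replicate 1 had 63.3 CPM summed over the Hox intervals (35.6 to 41.6 in the others) and 3.04 CPM at chr6:52178681-52179643 (0.307 to 0.949 in the others).

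P21 non-neuron replicate 5 was low at both chr6:52113790-52114459 (3.04 CPM, others 4.72 to 5.17) and chr15:102846097-102846464 (4.68 CPM, others 6.99 to 7.47). P21 non-neuron replicate 1 was high at chr6:52177566-52177954 (4.03 CPM, others 2.10 to 2.49), and P21 non-neuron replicate 2 at chr11:96091724-96093510 (1.40 CPM, others 0.819 to 0.985). P0 non-neuron replicate 2 was low at chr15:102846464-102848933 (0.639 CPM, others 1.07 to 1.08) and high at chr2:74565696-74566584 (1.60 CPM, others 0 to 0.407). P0 non-neuron replicate 5 was high at chr15:102845502-102846097 (1.61 CPM, others 0.307 to 0.479). All 9 were libraries of non-neurons.

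The age change at chr15:102848933-102849610 differed between neurons and non-neurons by 2.60 on the log2 scale, tested as an interaction (edgeR, adjusted p = 7.6e-06), with P21 above P0 in all 5 libraries of both cell types.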

How the results depend on the processing

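No result reversed. Of the log2 fold changes of called intervals, 105 of 105 values under other scalings, filters, models or groups kept direction and call where the interval was tested. With 1 library left out 121 of 130 did, and the other 9 were all of chr11:96193559-96194379. That interval was not tested with the filter of at least 20 reads in 5 libraries, so its calls were lost there. The calls were then 2 at P21 (main value 3) and 3 with age in non-neurons (4). Without a filter the calls at P21 numbered 10 (main value 3), with age in neurons 18 (3) and in non-neurons 16 (4), where more intervals are tested; a filter of at least 20 reads in 5 libraries left 6 Hox intervals. Removing the trend with interval length gave 5 calls with age in neurons, 6 in non-neurons and 2 for the interaction (1), and DESeq2 gave 2 for the interaction, the second being chr15:102846097-102846464. For all these the cause was not tested. Leaving out 1 library gave 1 to 2 calls at P0, 2 to 4 at P21, 3 to 4 with age in neurons, 3 to 5 in non-neurons and 1 to 2 for the interaction; it was 2 without P0 neuron replicate 1, P0 non-neuron replicate 2 or 3 or P21 neuron replicate 1, and at P0 2 without P0 non-neuron replicate 2. Summed CPM in P21 non-neurons was 21.6 (Hoxa) and 18.6 (Hoxc) with library totals alone and 21.9 (Hoxa) with the length trend removed, and Hoxc in P21 neurons was 29.7 with upper-quartile scaling. Library totals alone moved the median log2 change with age of all tested intervals to 0.26 in both cell types, and upper-quartile scaling the P21 cell type median to -0.25. With replicate number as a block the calls were 1, 3, 3, 4 and 2 in the order above. The block made the interaction of chr15:102846097-102846464 a call (1.05, adjusted p = 0.0458). The labels do not say whether equal numbers share a pool. Neurons and non-neurons with equal numbers correlated from 0.0451 to 0.210 at P0 and from -0.007 to 0.322 at P21, not over 0.1 in every pair. Equal numbers across ages correlated from -0.0831 to 0.123. Unequal numbers correlated up to 0.215 at P0, 0.161 at P21 and 0.152 across ages. At this depth 3 reads are 0.263 to 0.537 CPM in 1 library and 0.0636 to 0.0977 CPM over the 5 libraries of a group. The median level of 0.150 CPM was taken from means over 20 libraries, so neither limit applies to it directly.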
